A study of Danio rerio with 6 samples.

Results

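The nuclear genes for oxidative phosphorylation were followed across 6 pools of whole zebrafish embryos. They were chosen by symbol: every gene listed outside the mitochondrial chromosome whose name opens with nduf followed by a, b, c, s or v, with sdh followed by a, b, c or d, with uqcr, cycs or cyc1, with the cox prefixes of the nuclear cytochrome c oxidase subunits, or with atp5. This gave 107 of the 31452 genes listed, with 104 distinct symbols. The symbols cox5aa, ndufv3 and uqcrfs1 are each listed as 2 gene models but as 1 locus in RefSeq. Each model is counted as a gene in the numbers below, though the 2 models of a symbol may not be independent. Grouped by the complex their products join, 39 belonged to complex I, 6 to complex II, 9 to complex III, 2 encoded cytochrome c, 19 belonged to complex IV and 19 to complex V. A further 11 encoded assembly factors or related proteins, which the symbol prefixes also catch, and 2 were copies of ndufa4l2, a paralogue of a complex IV subunit. The gene ndufa4 was counted with complex IV, where its product resides in mammals despite its name.

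The EWSR1-ERG group comprised 3 pools of embryos that expressed a GFP-tagged EWSR1-ERG fusion in neurons. The fusion came from the insertion Tg(14xUAS:GFP-EWSR1-ERG), its driver was the Gal4 enhancer trap line Et(E1b:Gal4-VP16)s1101t, and the cross also brought in a reporter, Tg(UAS:Kaede) s1999t. EWSR1-ERG joins an RNA-binding protein gene to an ETS transcription factor gene and is an oncogene of Ewing sarcoma. The wild-type group comprised 3 pools of siblings that the labels call non-expressing controls. The labels do not say which of the driver and reporter insertions these siblings carried, so the fusion and those insertions cannot be told apart. All embryos were 3 days post fertilisation and each pool held 15 of them. No label says whether a pool was a clutch of its own, so the p-values measure only the spread between these pools, which may be technical. Neither the fusion transcript nor GFP, Kaede or Gal4 is among the listed genes, so the transgenes were not measured here.

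Oxidative phosphorylation makes most of the ATP of most animal cells. Complexes I and II feed electrons from NADH and succinate to ubiquinone, complex III passes them to the mobile carrier cytochrome c, and complex IV, cytochrome c oxidase, hands them to oxygen. The proton gradient built on the way drives complex V, the ATP synthase. Complexes I, III, IV and V combine subunits of nuclear and mitochondrial genes, whereas complex II is wholly nuclear. Neurons, photoreceptors, heart and slow muscle are rich in these complexes, and several complex IV subunits have muscle or heart isoforms in mammals.

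The libraries held 6474430, 5611197 and 13338802 counts in EWSR1-ERG replicates 1 to 3, against 5672149, 5154500 and 4771843 counts in wild-type replicates 1 to 3. EWSR1-ERG replicate 3 was the deepest and the only one whose file name carries another lane number, so lane could not be fitted. Before the results, 2 pools need naming: EWSR1-ERG replicate 1 and wild-type replicate 3 stood farther from their group than the other pools did, with an average chi-square per gene of 6.94 and 10.3 against the other EWSR1-ERG pools and of 7.41 and 5.05 against the other wild-type pools, where the remaining pairs gave 3.24 (EWSR1-ERG) and 1.74 (wild type). A chi-square of counts can grow with depth, so pairs with EWSR1-ERG replicate 3, the deepest pool, are not on the scale of the other pairs. The 107 genes took 1.45%, 1.52% and 1.54% of the counts in EWSR1-ERG pools, against 1.85%, 1.90% and 1.95% in wild-type pools. Levels below are CPM, counts per 1000000 counts of the library total after scaling by trimmed mean of M values (TMM), and they are compared only between pools for the same gene or sum, since transcript lengths were not used.

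Most nuclear oxidative phosphorylation genes were modestly lower in EWSR1-ERG pools, in all 5 complexes. Of the 107 genes, 102 passed the filter on low counts. In the quasi-likelihood F test of edgeR, with p-values adjusted after Benjamini and Hochberg over 17557 tested genes and a threshold of 0.05, 48 of the 102 were lower and 1 was higher. Among all tested genes, 9.87% were lower and 7.45% were higher. Counts of called genes below, by complex and by list, stand against these shares. The median log2 fold change of the 102 was -0.35, or 21.8% lower, against 0.00 over all tested genes, whose middle quartiles ran from -0.27 to 0.23. The fold change was negative in 96 of the 102 genes, against 49.4% of all tested genes, and in 82 of them every EWSR1-ERG pool lay below every wild-type pool, against 18.0% of all tested genes. In bulk pools, fewer cells of a type and less RNA per cell cannot be told apart.

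The number of lower genes depended on single pools more than the direction did. It was 10 without wild-type replicate 2 (5.43% of all tested genes lower) and 15 without EWSR1-ERG replicate 2 (7.97%). Without wild-type replicate 3 it was 23 (9.23%), and without EWSR1-ERG replicate 3 it was 34 (9.01%). It was 40 without EWSR1-ERG replicate 1 and 44 without wild-type replicate 1. In those fits, in that order, 1504 and 1135 of all tested genes were lower, against 1732 with all pools. DESeq2's Wald test called 38 of the genes lower (8.22% of all tested genes). The median stayed between -0.42 and -0.28 in all 15 alternatives. The 8 genes called lower in each of these alternatives were NDUFB2 and ndufab1b of complex I, the uqcrfs1 model ENSDARG00000077402 of complex III, cycsb, and cox4i2, cox7a2a, cox6c and the cox5aa model ENSDARG00000088383 of complex IV. EWSR1-ERG replicate 1 had the lowest level for 60 of the 102 genes, and wild-type replicate 3 the highest for 86.

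**Figure D1:**
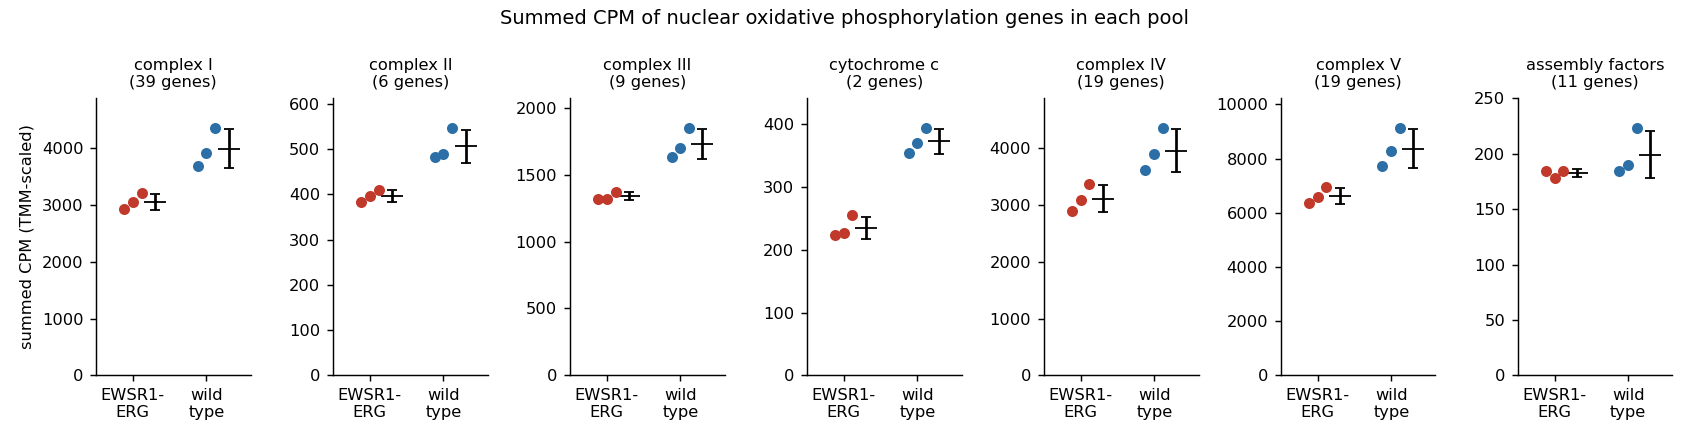
Summed CPM of the listed genes of each complex, of cytochrome c and of the assembly factors in each pool, with the mean and SD of each group (n = 3) as a bar; each panel has its own vertical axis from 0. The 3 EWSR1-ERG pools lie below the 3 wild-type pools in every panel except that of the assembly factors, where they overlap.

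Summed by complex, the decreases were close in size. The complex I genes summed to 2920, 3042 and 3197 CPM in EWSR1-ERG pools, against 3686, 3915 and 4354 CPM in wild-type pools, and complex V genes to 6367, 6576 and 6946 CPM, against 7709, 8260 and 9139 CPM. The mean sum was 23.4% lower for complex I, 21.7% for complex II, 22.5% for complex III, 21.3% for complex IV and 20.8% for complex V. The pools of both groups did not overlap in any of these 5 sums, and wild-type replicate 3 was the highest in each. The median log2 fold change was -0.37 for complex I, -0.36 for complex II, -0.38 for complex III, -0.37 for complex IV and -0.33 for complex V. No test was made between complexes.

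**Figure D2:**
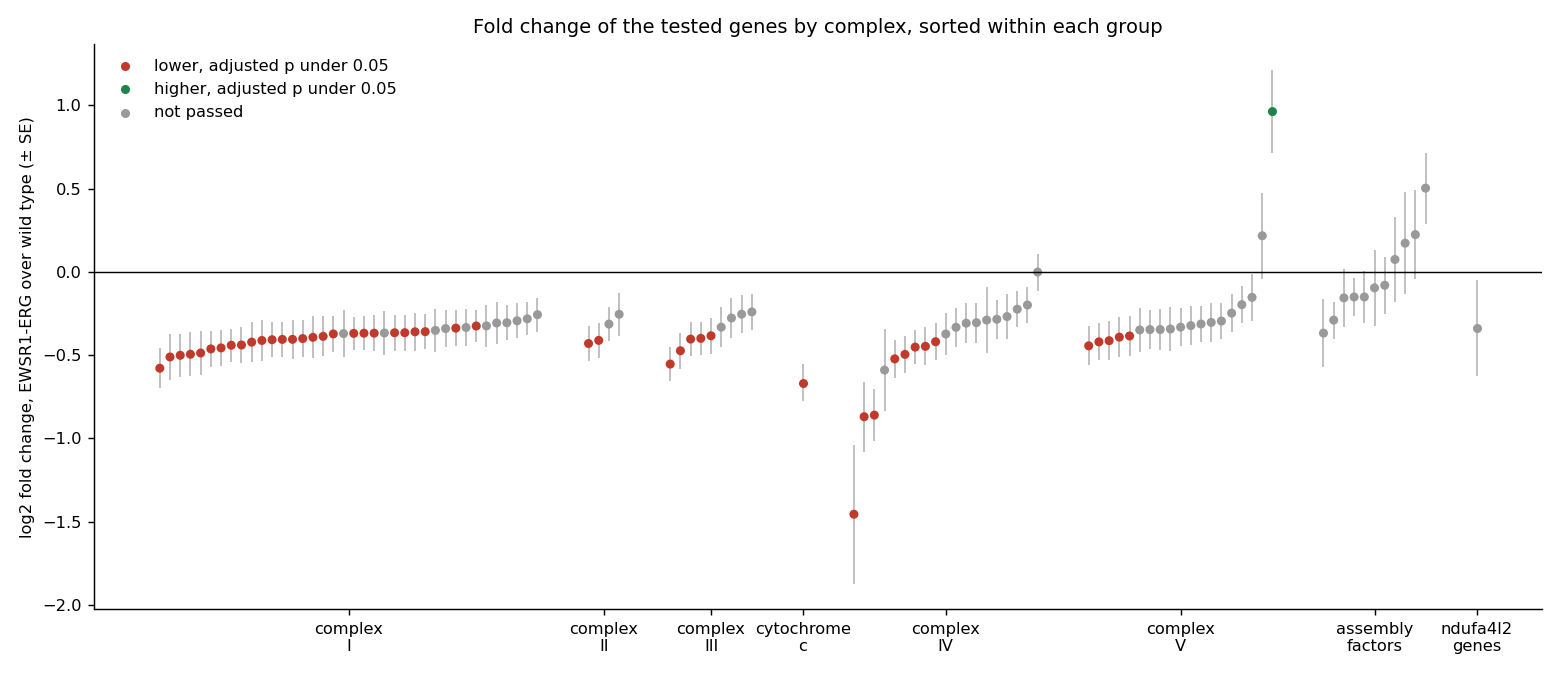
Log2 fold change (EWSR1-ERG over wild type) of each of the 102 tested genes, sorted within its group; error bars are 1 SE, and colour marks the edgeR call. Complex I forms a flat band between -0.58 and -0.26, complexes IV and V carry the extremes at -1.46 and 0.96, and the assembly factors straddle 0.

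Of the 5 complexes, complex I had the smallest SD of fold changes, at 0.07, against 0.08, 0.10, 0.32 and 0.32 in complexes II to V. The extremes of complexes IV and V came from genes with low counts, COX5B (1 of 3) and ATP5J (3 of 4). The low-count complex I gene ndufs8b did not pass the filter, so it is not part of that SD. All 38 tested genes had a negative fold change, between -0.58 and -0.26, and 27 were called lower. The SD of their 38 fold changes was 0.07, below the median SE of a single gene, 0.11. The SE reflects spread between pools and the SD spread between genes. All 38 genes were measured in the same pools, so their fold changes are not independent of each other. Core subunits, which form the catalytic part with its flavin, iron-sulphur clusters and ubiquinone site, had a median of -0.37 over 7 tested genes, and accessory subunits, which surround that core, a median of -0.37 over 31. Without wild-type replicate 2 the number called lower was 3, and without EWSR1-ERG replicate 2 it was 6. It was 7 without wild-type replicate 3 and 17 without EWSR1-ERG replicate 3. In those fits, in that order, 5.43%, 7.97%, 9.23% and 9.01% of all tested genes were lower. With 3 of 38 lower, the fit without wild-type replicate 2 was near its share.

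The complex I gene with the smallest p was NDUFB2 (ENSDARG00000045490, chromosome 4 of Zv9), an accessory subunit of the membrane arm. It stood at 66.3, 62.7 and 75.0 CPM in EWSR1-ERG pools, against 87.5, 105 and 114 CPM in wild-type pools. The pools did not overlap, and the log2 fold change was -0.58 (SE 0.12, edgeR adjusted p = 0.00441). The accessory subunit gene ndufa9 (chromosome 25) stood at 92.8 ± 4.72 CPM in EWSR1-ERG pools and 126 ± 5.42 CPM in wild-type pools (SD, n = 3 each), a log2 fold change of -0.44 (edgeR adjusted p = 0.00753). The flavoprotein gene ndufv1 (chromosome 19), whose product oxidises NADH, stood at 185, 208 and 223 CPM in EWSR1-ERG pools, against 273, 287 and 285 CPM in wild-type pools. All 3 EWSR1-ERG pools lay below the lowest wild-type pool, with a log2 fold change of -0.46 (SE 0.11, edgeR adjusted p = 0.00961). The calls of ndufa9 and ndufv1 were lost without wild-type replicate 2.

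Further core genes were close to the same size. The iron-sulphur subunit gene ndufs1 had a log2 fold change of -0.37 (edgeR adjusted p = 0.0208), ndufs7, whose product holds the last cluster before ubiquinone, -0.44 (adjusted p = 0.0141), and ndufs3 -0.40 (adjusted p = 0.0305). The cluster-bearing subunit genes ndufv2, at -0.29 (edgeR adjusted p = 0.0723), and ndufs8a, at -0.26 (adjusted p = 0.107), did not pass. The call of ndufs1 was lost without wild-type replicates 1 or 2 or EWSR1-ERG replicates 2 or 3. That of ndufs7 was lost without wild-type replicates 2 or 3, and that of ndufs3 without these or EWSR1-ERG replicates 1 or 2. Of the 7 core genes tested, 0 were called by edgeR without wild-type replicate 2. These core genes were chosen for their role after their values were seen. The second ndufs8 copy, ndufs8b, had 1, 1 and 2 counts in EWSR1-ERG pools, against 5, 7 and 3 counts in wild-type pools, too few to pass the filter. In the alternative without a filter on low counts, its log2 fold change was -2.46 (edgeR adjusted p = 0.0268), resting on these few counts.

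Complex II, succinate dehydrogenase, also belongs to the tricarboxylic acid cycle, and of its 4 tested genes 2 were lower. The membrane anchor gene sdhdb (chromosome 15) stood at 85.3, 75.7 and 81.5 CPM in EWSR1-ERG pools, against 104, 107 and 117 CPM in wild-type pools. The iron-sulphur subunit gene sdhb (chromosome 22) stood at 104, 99.8 and 104 CPM in EWSR1-ERG pools, against 134, 125 and 150.2 CPM in wild-type pools. For both genes the pools did not overlap, with log2 fold changes of -0.43 (SE 0.10, edgeR adjusted p = 0.0105) and -0.41 (SE 0.10, edgeR adjusted p = 0.0144). The catalytic flavoprotein gene sdha (chromosome 19) stood at 115, 136 and 128 CPM in EWSR1-ERG pools, against 159, 151 and 161 CPM in wild-type pools, without overlap, and did not pass (-0.31, SE 0.10, edgeR adjusted p = 0.0535). The other anchor gene, sdhc, overlapped between groups (-0.25, edgeR adjusted p = 0.208). The calls of both lower genes were lost without EWSR1-ERG replicate 2, and that of sdhdb also without wild-type replicate 2; sdha passed as well when EWSR1-ERG replicate 3 was thinned to 42.1% of its counts. Of the remaining copies, sdhda had between 1 and 13 counts per pool and SDHB (2 of 2) had none.

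Complex III, the cytochrome bc1 complex, had 5 of 9 genes lower, and in all 9 every EWSR1-ERG pool lay below every wild-type pool. The smallest p was that of uqcrfs1, the gene for the Rieske iron-sulphur protein, which is listed as 2 gene models on chromosome 7. The model ENSDARG00000077402 stood at 131, 138 and 154 CPM in EWSR1-ERG pools, against 206, 207 and 209.5 CPM in wild-type pools, and its log2 fold change was -0.55 (SE 0.10, edgeR adjusted p = 0.00208). The model ENSDARG00000007745 stood at 73.6, 78.9 and 90.1 CPM in EWSR1-ERG pools, against 106, 113 and 118 CPM in wild-type pools (-0.47, SE 0.11, edgeR adjusted p = 0.00833). The RefSeq gene table holds 1 locus of this name, so how reads were split between both models is uncertain. Both models enter the counts of complex III genes, though they may not be independent.

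The core protein gene uqcrc2b (chromosome 12) stood at 173 ± 5.49 CPM in EWSR1-ERG pools and 229 ± 9.40 CPM in wild-type pools (SD, n = 3 each), with a log2 fold change of -0.40 (edgeR adjusted p = 0.013). Its paralogue uqcrc2a, which did not pass, was at -0.25 (edgeR adjusted p = 0.148), as was cyc1, the gene of cytochrome c1, at -0.24 (adjusted p = 0.155). The number of lower complex III genes was 1 without wild-type replicate 2 and 2 without EWSR1-ERG replicate 2. The calls of uqcrc2b and of the second uqcrfs1 model were among those lost without wild-type replicate 2, and that of uqcrc2b was also lost without EWSR1-ERG replicate 2.

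Cytochrome c had the smallest p of the 102 genes. Its gene cycsb (ENSDARG00000044562, chromosome 6) stood at 224, 226 and 255 CPM in EWSR1-ERG pools, against 354, 369.6 and 394 CPM in wild-type pools. The highest EWSR1-ERG pool was well below the lowest wild-type pool, and the log2 fold change was -0.66 (SE 0.11, edgeR adjusted p = 0.00072), or 36.9% lower. It stayed between -0.73 and -0.62, and called, in all 15 alternatives. The second cytochrome c gene, cycsa, had 0 counts in every pool, where 3 counts, the number a count of 0 allows, equal 0.229 to 0.522 CPM in EWSR1-ERG pools and 0.506 to 0.674 CPM in wild-type pools; these limits cover counting error only.

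Complex IV, which passes electrons to oxygen, had 8 of 19 genes lower. All 19 had a negative fold change, between -1.46 and -0.00, with the steepest on few counts and that of cox6b1 changing sign with the setting. The ubiquitous subunit gene cox4i1 (chromosome 18) stood at 367, 380.5 and 404 CPM in EWSR1-ERG pools, against 479.9, 503 and 557 CPM in wild-type pools. Its log2 fold change was -0.42 (SE 0.11, edgeR adjusted p = 0.0179). The paralogue cox4i2 (ENSDARG00000022509, chromosome 23), which in mammals is the lung and hypoxia-responsive isoform, stood at 19.4, 23.9 and 28.5 CPM in EWSR1-ERG pools, against 36.7, 45.3 and 50.4 CPM in wild-type pools. Both isoforms were without overlap between groups, and cox4i2 changed by -0.86 (SE 0.16, edgeR adjusted p = 0.00175), or 44.9% lower. The number of lower complex IV genes was 4 without wild-type replicate 2, and the call of cox4i1 was lost without that pool or without EWSR1-ERG replicate 2.

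**Figure D3:**
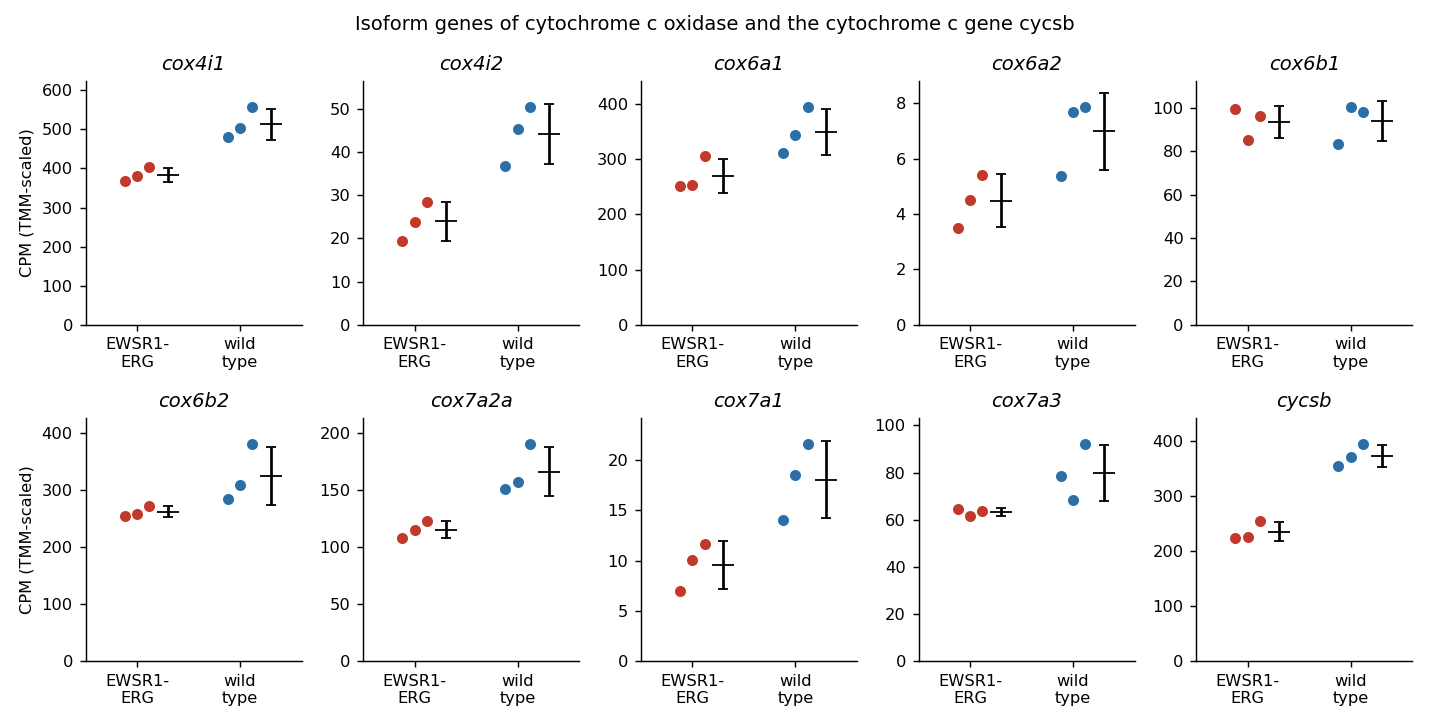
CPM of the cytochrome c oxidase isoform genes and of cycsb in each pool, with the mean and SD of each group (n = 3); each panel has its own vertical axis from 0. The groups do not overlap for cycsb or for any isoform shown except cox6a2 and cox6b1. For cox6b1 the overlap is full, with EWSR1-ERG pools at 85.1 to 99.3 CPM and wild-type pools at 83.2 to 100.3 CPM.

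The cox7a family holds a heart and skeletal muscle isoform in mammals, COX7A1, beside the ubiquitous COX7A2. The gene cox7a1 (ENSDARG00000069464, chromosome 15) stood at 7.01, 10.1 and 11.6 CPM in EWSR1-ERG pools, against 14.0, 18.5 and 21.6 CPM in wild-type pools (log2 fold change -0.87, SE 0.21, edgeR adjusted p = 0.0109). The gene cox7a2a (chromosome 17) stood at 108, 116 and 123 CPM in EWSR1-ERG pools, against 151, 157 and 191 CPM in wild-type pools (-0.52, SE 0.11, edgeR adjusted p = 0.00627). Neither gene overlapped between groups. The third member, cox7a3, which the gene name table lists as COX7A2L, a factor that joins complexes III and IV in mammals, stood at 63.3 ± 1.67 CPM in EWSR1-ERG pools and 79.8 ± 11.8 CPM in wild-type pools (SD, n = 3 each), and did not pass (-0.33, edgeR adjusted p = 0.0676). The call of cox7a1 was lost without wild-type replicate 2.

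The cox6a family has a heart and muscle isoform, COX6A2, in mammals. The gene that the files call cox6a2 (chromosome 3) is listed as COX6A1, the ubiquitous isoform, in the gene name table, so its standing as a muscle isoform rests on the symbol alone. It stood at 3.50, 4.53 and 5.43 CPM in EWSR1-ERG pools, against 5.39, 7.70 and 7.87 CPM in wild-type pools. The groups touched at one pool each, and the gene did not pass (-0.59, SE 0.25, edgeR adjusted p = 0.124). The gene cox6a1 stood at 251, 252 and 306 CPM in EWSR1-ERG pools, against 311, 344 and 394 CPM in wild-type pools, without overlap (-0.37, SE 0.12, edgeR adjusted p = 0.0536). It passed in 6 of the 15 alternatives. Of the cox6b pair, whose products link the complex IV dimer, cox6b2 stood at 255, 259 and 273 CPM in EWSR1-ERG pools, against 284, 309 and 381 CPM in wild-type pools (-0.31, edgeR adjusted p = 0.102). The paralogue cox6b1 stood at 99.3, 85.1 and 96.4 CPM in EWSR1-ERG pools, against 83.2, 100.3 and 98.0 CPM in wild-type pools, with a log2 fold change of -0.00 and an approximate 95% interval from -0.22 to 0.22; its sign changed with the setting. The remaining family genes did not pass: cox8a was at -0.30 (edgeR adjusted p = 0.101), ndufa4 at -0.22 (adjusted p = 0.183) and its paralogue ndufa4l2, which hypoxia induces in mammals, at -0.34 (adjusted p = 0.483) with 17 to 41 counts per pool.

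Whether paralogues of 1 subunit moved unequally was examined as the change in their log2 ratio per pool, for 6 pairs, with two-sided exact permutation tests adjusted over the pairs; 3 pools against 3 cannot give a p below 0.1. The log2 ratio of cox4i2 to cox4i1 was -4.21, -3.97 and -3.80 in EWSR1-ERG pools, against -3.69, -3.46 and -3.45 in wild-type pools. These did not overlap, for a difference of -0.46 (exact permutation p = 0.1, adjusted p = 0.3). The log2 ratio of cox6b2 to cox6b1 was 1.35, 1.60 and 1.50 in EWSR1-ERG pools, against 1.76, 1.62 and 1.95 in wild-type pools. These were also without overlap (difference -0.30, exact permutation p = 0.1, adjusted p = 0.3). The log2 ratios of genes with muscle isoform symbols overlapped between groups. That of cox7a1 to cox7a2a differed by -0.37 (exact permutation p = 0.2, adjusted p = 0.3). That of cox6a2 to cox6a1 differed by -0.21 (exact permutation p = 0.3, adjusted p = 0.36). The log2 ratio of cox7a3 to cox7a2a was higher by 0.19 (exact permutation p = 0.2, adjusted p = 0.3), and that of ndufa4l2 to ndufa4 differed by 0.01 (exact permutation p = 1). No pair passed, and with 3 pools a group none could have.

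Markers of muscle and heart were measured in the same libraries. Of 27 fast skeletal muscle genes tested, 3 were higher and 4 lower, with a summed level of 83513 to 112030 CPM in EWSR1-ERG pools and 93895 to 106740 CPM in wild-type pools. Of 12 slow muscle genes, 1 was higher and 5 were lower, with sums of 1597 to 2114 CPM in EWSR1-ERG pools and 2145 to 2499 CPM in wild-type pools. Of 11 heart genes, 2 were higher and 7 were lower, with sums of 196 to 231 CPM in EWSR1-ERG pools and 278 to 318 CPM in wild-type pools. EWSR1-ERG replicate 1 had the lowest sum of all 3 lists, though for heart EWSR1-ERG replicate 2 was close (196 against 197 CPM). This was not particular to muscle and heart, since EWSR1-ERG replicate 1 also had the lowest sums of the neuron and photoreceptor lists. It also had the lowest level for 60 of the 102 tested oxidative phosphorylation genes. Among these were cox7a1, cox6a2 and cox4i2, but also the ubiquitous cox7a2a and cox4i1. No marker in these lists was at 0 in every pool, and their part in the isoform values was not tested.

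Among the other complex IV genes, cox5aa is listed as 2 gene models on chromosome 25 and 1 locus in the RefSeq table, so the split of reads is uncertain. The model ENSDARG00000088383 stood at 114, 121 and 112 CPM in EWSR1-ERG pools, against 149, 157 and 184 CPM in wild-type pools (log2 fold change -0.50, SE 0.11, edgeR adjusted p = 0.00638). The model ENSDARG00000017906 stood at 520.5, 683 and 747 CPM in EWSR1-ERG pools, against 734, 792 and 823 CPM in wild-type pools, and overlapped (-0.27, SE 0.14, edgeR adjusted p = 0.21). EWSR1-ERG replicate 1 was the low pool of that model. The steepest fold change of the 102 genes, -1.46 for COX5B (1 of 3) (SE 0.42, edgeR adjusted p = 0.0272), rested on 4, 10 and 14 counts in EWSR1-ERG pools, against 16, 23 and 9 counts in wild-type pools. It was lost in 6 alternatives, among them those without wild-type replicates 1 or 2 or EWSR1-ERG replicates 1 or 3. The copy COX5B (2 of 3) was at -0.45 (edgeR adjusted p = 0.0144), a call lost without EWSR1-ERG replicate 2 or wild-type replicate 2. COX5B (1 of 3) was chosen for its size after its value was seen.

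Complex V had 5 of 19 genes lower and 1 higher, where 9.87% of all tested genes were lower and 7.45% higher. With 1 of 19, its share of higher genes was below that of all tested genes. The ATP5B gene (chromosome 11), for the catalytic beta subunit, stood at 1546, 1626 and 1659 CPM in EWSR1-ERG pools, against 1987, 2109 and 2243 CPM in wild-type pools. The log2 fold change was -0.39 (SE 0.12, edgeR adjusted p = 0.0354). The alpha subunit gene atp5a1 stood at 1216, 1294 and 1373 CPM in EWSR1-ERG pools, against 1527, 1597 and 1667 CPM in wild-type pools, without overlap, and did not pass (-0.30, SE 0.12, edgeR adjusted p = 0.094). Both were chosen for their role. The call of ATP5B was lost without a filter on low counts, without wild-type replicate 2 and on leaving out any EWSR1-ERG pool. Genes of the F1 head had a median of -0.32 over 5 genes, and the other subunits -0.34 over 14. The c-ring genes atp5g1 (-0.38, edgeR adjusted p = 0.0388), atp5g3b (-0.34, adjusted p = 0.0871) and atp5g3a (-0.20, adjusted p = 0.269) encode the same mature protein from different precursors in mammals. The call of atp5g1 was lost without wild-type replicates 2 or 3 or EWSR1-ERG replicates 2 or 3. The number of lower complex V genes was 0 without wild-type replicate 2 or EWSR1-ERG replicate 2. It was 1 without wild-type replicate 3 and 2 without EWSR1-ERG replicate 3, against 10 with library totals alone as the scaling. In the fits without a pool, in that order, 5.43%, 7.97%, 9.23% and 9.01% of all tested genes were lower. The complex V counts in these fits were near or below those shares.

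The single higher gene belonged by its symbol to the coupling factor 6 family, a part of the stalk that joins the F1 head to the membrane. The gene name table gives it no coupling factor name, so its family rests on the symbol alone. The copy ATP5J (3 of 4) (ENSDARG00000089853, chromosome 1) stood at 6.40, 9.75 and 6.49 CPM in EWSR1-ERG pools, against 3.54, 4.04 and 3.82 CPM in wild-type pools, which is 42, 56 and 85 counts against 21, 21 and 17. The groups did not overlap, and the log2 fold change was 0.96 (SE 0.25, edgeR adjusted p = 0.0171). The copy atp5j on the same chromosome stood at 176, 159.8 and 164 CPM in EWSR1-ERG pools, against 199.9, 222 and 248 CPM in wild-type pools (-0.42, SE 0.11, edgeR adjusted p = 0.0179). The copies ATP5J (4 of 4) and ATP5J (2 of 4), both on chromosome 9, were lower by similar amounts (-0.44, edgeR adjusted p = 0.0189, and -0.41, adjusted p = 0.0256). If these are copies of 1 family, as their symbols say, their reads may have been split by the counting. The direction of ATP5J (3 of 4) is uncertain to that extent. Its call was lost when EWSR1-ERG replicate 2 or wild-type replicate 1 or 2 was left out. The calls of the 3 lower copies were lost on leaving out EWSR1-ERG replicate 2 or wild-type replicate 2 or 3, and atp5j also lost its call without EWSR1-ERG replicate 3.

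Assembly factors help to build the complexes without staying in them. Of the 11 assembly factor genes caught by the symbols, edgeR called 0, with 2 at an unadjusted p under 0.05; DESeq2 and limma-voom also called 0. With a median SE of 0.20, against 0.11 for the nuclear subunits with cytochrome c, these 11 genes needed a larger change to be called. Their median log2 fold change was -0.10, with 7 negative and 4 positive, and their sum was 184, 178 and 185 CPM in EWSR1-ERG pools, against 184, 190 and 223 CPM in wild-type pools. The 2 genes were ndufaf1, at -0.29 (edgeR adjusted p = 0.0918), and ndufaf7, a methyltransferase acting on a complex I subunit, at 0.50 (adjusted p = 0.127); ndufaf7 passed without wild-type replicate 3. The ratio of the summed subunits to the summed assembly factors was 76.7, 82.2 and 84.1 in EWSR1-ERG pools, against 95.0, 98.1 and 92.4 in wild-type pools, without overlap. Of 34 other assembly factor genes, 2 were lower and 0 higher, with a median of -0.06: selrc1, a complex IV assembly factor listed as coa7 in the gene name table (-0.55, edgeR adjusted p = 0.0207), and atpaf1, an F1 assembly factor (-0.44, adjusted p = 0.0467). Both calls were lost with DESeq2's Wald test and without wild-type replicate 1 or 2, and that of atpaf1 in 9 alternatives.

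**Figure D4:**
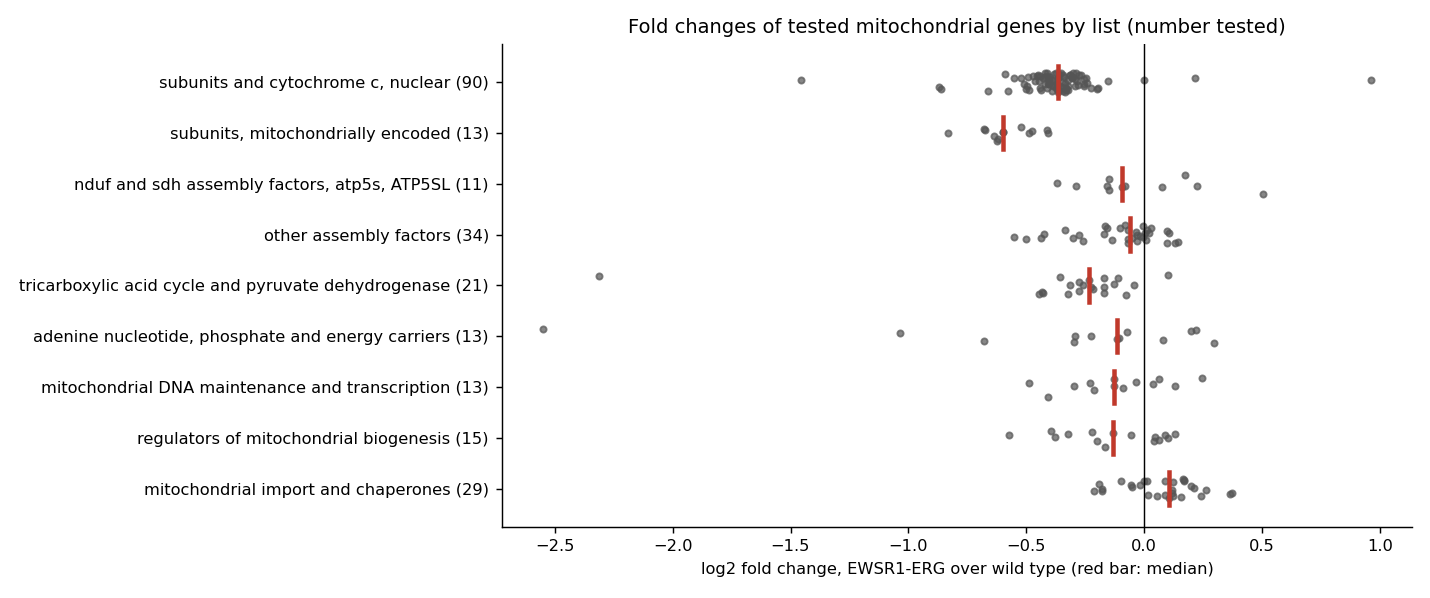
Log2 fold changes (EWSR1-ERG over wild type) of the tested genes of the complexes and of other mitochondrial gene lists, 1 point a gene, with the median as a red bar. Nuclear subunits centre on -0.37 and mitochondrially encoded subunits on -0.60, whereas assembly, import and DNA maintenance genes centre between -0.13 and 0.11.

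The mitochondrial genome encodes the remaining subunits of complexes I, III, IV and V. Of its 13 protein genes, 11 were lower, with a median log2 fold change of -0.60. The number of lower genes was 8 without wild-type replicate 2, 9 without EWSR1-ERG replicate 2, and 10 or 11 without any other single pool. For complex V the ratio of mitochondrial to nuclear summed CPM was 0.518, 0.548 and 0.514 in EWSR1-ERG pools, against 0.722, 0.710 and 0.755 in wild-type pools. For complex I it was 1.89, 2.02 and 1.86 in EWSR1-ERG pools, against 2.11, 2.18 and 2.38 in wild-type pools. For complexes III and IV the ratio was likewise lower in every EWSR1-ERG pool than in any wild-type pool. The change in these ratios was not tested across genes.

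Neighbouring pathways were read from the same fit. Of 21 genes of the tricarboxylic acid cycle and pyruvate dehydrogenase, 6 were lower and 0 higher, with a median of -0.23. They included sucla2, a subunit of succinyl-CoA synthetase (-0.45, edgeR adjusted p = 0.00756), and idh3b, a subunit of isocitrate dehydrogenase (-0.43, adjusted p = 0.00844). The pyruvate dehydrogenase gene pdha1b stood at 1.22, 0.871 and 0.917 CPM in EWSR1-ERG pools, against 5.90, 3.85 and 5.17 CPM in wild-type pools (-2.31, SE 0.33, edgeR adjusted p = 0.000225). Without wild-type replicate 2 the number of lower genes was 1, with the calls of sucla2 and idh3b lost, and without EWSR1-ERG replicate 2 it was 3. Of 73 mitochondrial ribosomal protein genes, 1 was lower and 0 higher, with a median of -0.10; the lower gene, MRPS12 (2 of 2), was at -0.61 (edgeR adjusted p = 0.0218), a call lost without EWSR1-ERG replicate 2 or wild-type replicates 2 or 3.

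Among genes for carriers that supply the ATP synthase with its substrates, slc25a3a and slc25a4 were lower, whereas their paralogues slc25a3b and slc25a5 did not pass. The phosphate carrier gene slc25a3a (chromosome 4) stood at 7.92, 6.62 and 8.63 CPM in EWSR1-ERG pools, against 44.5, 45.6 and 48.6 CPM in wild-type pools, and fell by 2.55 on the log2 scale (edgeR adjusted p = 2.24e-08). Its paralogue slc25a3b was at -0.30 (edgeR adjusted p = 0.106). The ADP/ATP carrier gene slc25a4 (chromosome 1), the heart and muscle isoform in mammals, stood at 361, 481 and 557 CPM in EWSR1-ERG pools, against 880, 970 and 1019 CPM in wild-type pools (-1.04, edgeR adjusted p = 0.00027), while slc25a5 was at -0.11 (adjusted p = 0.657). The calls of slc25a3a and slc25a4 were the only ones among 13 carrier genes, whose median was -0.12, and both held in all 15 alternatives. The sum of the carrier list overlapped between groups, at 8223 to 8753 CPM in EWSR1-ERG pools and 8640.5 to 10516 CPM in wild-type pools. Of 29 import and chaperone genes, 2 were higher, the mitochondrial chaperonin hspd1 (0.37, edgeR adjusted p = 0.0332) and the mitochondrial Hsp70 gene hspa9 (0.36, adjusted p = 0.0415); both calls were lost on leaving out any wild-type pool or EWSR1-ERG replicate 1 or 2.

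The regulators include transcription factors and coactivators known to act on respiratory genes in mammals. Of 15 regulators of mitochondrial biogenesis tested, 1 was lower, the nuclear receptor gene pparda (-0.57, edgeR adjusted p = 0.0401), which lost its call in 6 alternatives, among them those without any 1 wild-type pool or EWSR1-ERG replicates 1 or 2. The coactivator gene ppargc1a stood at 1.68, 2.26 and 3.44 CPM in EWSR1-ERG pools, against 3.88, 2.89 and 3.37 CPM in wild-type pools, overlapping (-0.38, SE 0.32, edgeR adjusted p = 0.482), and nrf1 was at 0.13 (adjusted p = 0.533). Of 13 genes for mitochondrial DNA maintenance and transcription, edgeR, DESeq2 and limma-voom called 0, with 1 at an unadjusted edgeR p under 0.05. Of 20 hypoxia response genes, 3 were higher and 3 lower, with a median of 0.00. Higher were the glycolytic regulator pfkfb3 (1.68, edgeR adjusted p = 3.99e-05), the oxygen-sensing hydroxylase gene egln3 (1.47, adjusted p = 0.00168) and the growth factor binding protein gene igfbp1a (1.87, adjusted p = 0.017), and lower were the glucose transporter gene slc2a1a (-3.24, adjusted p = 0.000427), the lactate dehydrogenase gene ldha (-0.59, adjusted p = 0.0028) and hif1aa, a hypoxia-inducible factor gene (-0.98, adjusted p = 0.0359). The call of igfbp1a was lost without wild-type replicates 1 or 3, and that of hif1aa in 6 alternatives, among them those without wild-type replicates 1 or 2 or EWSR1-ERG replicates 2 or 3.

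Markers of other cell types differed between the groups in the same pools. All 21 photoreceptor genes tested were lower, with a summed level of 1253 to 1455 CPM in EWSR1-ERG pools and 8559 to 9107 CPM in wild-type pools. Of 19 neuron genes 9 were lower and 0 higher, with sums of 1161 to 1485 CPM in EWSR1-ERG pools and 1679 to 2188 CPM in wild-type pools. Of 13 hepatocyte genes 7 were lower and 4 higher, with sums of 5419 to 6017 CPM in EWSR1-ERG pools and 7609 to 10585 CPM in wild-type pools. Of 14 ionocyte genes 6 were higher and 0 lower, with sums of 761 to 820 CPM in EWSR1-ERG pools and 685 to 759 CPM in wild-type pools. Erythroid and myeloid lists, like that of ionocytes, had genes called higher and 0 lower, at 8 of 13 and 12 of 14 higher. Their sums were 8032 to 9226 CPM and 324 to 523 CPM in EWSR1-ERG pools. In wild-type pools these were 4651 to 6715 CPM and 110 to 126 CPM. The part of any of these lists in the oxidative phosphorylation values was not tested.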

How the data were processed

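RNA was sequenced from 6 pools of whole embryos. The submitters' processing notes name the build Zv9 and the tools Bowtie2, SAMtools and DESeq. No source used here gives the counter, annotation release or strand setting, so reads of overlapping or antisense genes cannot be told apart. The deposited files give a count per Ensembl gene. The unit was taken to be expected counts, since the authors' last line, which names no gene, is not whole; all gene values were whole, so rounding changed nothing. Each file had 2 such lines without a gene, which were dropped. Library totals ran from 4771843 to 13338802.

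Genes were filtered with filterByExpr (minimum count 10, minimum total 15), scaled by TMM and tested with edgeR 4.0.16 in R 4.3.3, robust quasi-likelihood, with all 6 libraries, no covariate and Benjamini-Hochberg adjustment at 0.05. The printed SE is the log2 fold change over the square root of F, an approximation, and 95% intervals are derived from it. Isoform ratios used log2(CPM + 0.5). Alternatives used DESeq2 1.42.0, limma 3.58.1, other scalings and filters, thinning of the deepest library, a replicate block and leaving out each pool. Of these steps, the edgeR fit was tested on simulated counts. The genes and lists were chosen with earlier results of these data known, and the mitochondrial ribosomal list was added after the files were seen. Named genes were the 3 with the smallest p per complex and direction among those passing. All tested members of the cox4i, cox6a, cox6b, cox7a, cox8, ndufa4, cycs and sdh families were also named. So were up to 3 passing genes of each other list per direction. Other genes are named for their role or as the text says.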

Additional observations from a re-analysis of the deposited data

How the results depend on the processing

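Leaving out 1 pool at a time moved the number of genes called most: from 645 to 1334 higher and from 981 to 1669 lower among all genes, from 0 to 2 higher and from 10 to 44 lower among the oxidative phosphorylation genes; each such fit had 1 pool fewer, and no other cause was tested. With all pools kept, lower oxidative phosphorylation genes numbered 38 (DESeq2) to 53 (library totals alone). Of the 48 lower genes, 34 were called in all 9 alternatives that keep every pool and 8 in all 15. The sign was constant in 97 of 102 tested genes, and each complex's median stayed negative throughout. The log2 fold change of cox6b1 reversed to 0.00046 with DESeq2 size factors, 0.0156 with library totals alone, 0.000506 with the DESeq2 Wald test, 0.00713 without a filter, 0.00681 with EWSR1-ERG replicate 3 thinned, and lay between -0.0848 and 0.0643 on leaving out 1 pool, positive without EWSR1-ERG replicate 2 or wild-type replicates 2 or 3. The change in the ndufa4l2 to ndufa4 log2 ratio reversed to -0.0808 with thinning and ran from -0.141 to 0.266 on leaving out 1 pool. The cause was not tested. Same-numbered pools had correlations of deviations of -0.12, 0.09 and -0.02, and differently numbered pools from -0.20 to 0.17. With 3 pools a group, these values cannot tell whether same-numbered pools shared a clutch or day. With the replicate block, 42 oxidative phosphorylation genes were lower and 1 higher, as were 1481 (lower) and 1067 (higher) among all genes. The filter on low counts left 5 genes untested, and why their counts were low was not tested.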
